A study of Schizosaccharomyces pombe with 6 samples.

Results

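The genes described here are the subtelomeric genes of fission yeast chromosomes I and II, chosen as all listed genes whose locus lay within 80 kb of the left or right end of either chromosome, with genes named *mug* or *meu* left out. These were 146 of 7008 listed genes, 112 of them mRNA genes and 34 non-coding RNAs (ncRNAs), and 1 gene was left out by its name. The right end of each chromosome was taken as the highest locus end listed on it, base 5579133 on chromosome I and base 4532899 on chromosome II. The left end of chromosome I held 42 of the genes, its right end 34, the left end of chromosome II 39 and its right end 31. Among the mRNA genes, 12 are annotated as pseudogenes in the reference.

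The libraries compared came from wild type cells in YES rich medium at 24°C that were then held at 36°C for 15 minutes (heat stress), from *mas5Δ* cells (mas5D in the labels, lacking the Hsp40 chaperone Mas5) and *ssa2Δ* cells (ssa2D, lacking the Hsp70 chaperone Ssa2) in YES at 24°C, and from *nmt1:hsf1* cells at 24°C in thiamine-free minimal medium, which overexpress the heat shock transcription factor Hsf1 from the *nmt1* promoter that thiamine represses. The references were wild type cells in YES at 24°C, a library shared by the heat stress, *mas5Δ* and *ssa2Δ* comparisons, and wild type cells at 24°C in the same minimal medium. Each condition was 1 library of polyadenylated RNA, so no difference has a replicate check and no p-value is given. In such bulk libraries, fewer cells that express a gene and less of its RNA per cell cannot be told apart. The labels do not say how many strains or cultures stand behind a library.

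Subtelomeres are the stretches of DNA that lie between the telomere repeats and the body of the chromosome. In fission yeast they are covered by heterochromatin, marked by methylation of histone H3 by Clr4 and bound by Swi6, and further inwards by condensed chromatin called knobs, and many of their genes are expressed weakly in growing cells. They carry families of similar genes repeated at several ends, among them RecQ-type helicases, cell surface glycoproteins and transporters, and also genes for the use of alternative carbon and nitrogen sources.

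Values are FPKM, fragments per transcript length and library size, and the number of reads behind each is unknown. Log2 ratios to wild type were computed for genes above 0 in both libraries of a comparison, and a gene was counted as up or down when past 2-fold. The deleted or driven gene followed its label: *mas5* was at 36.3 FPKM in *mas5Δ* and 470 FPKM in wild type cells, *ssa2* at 55.0 FPKM in *ssa2Δ* and 2960 FPKM in wild type cells, and *hsf1* at 922 FPKM in *nmt1:hsf1* and 93.4 FPKM in wild type cells. The columns of the tables do not name their libraries. Their order was taken from the study's supplementary table for the first 3 comparisons and assumed to be the same for *nmt1:hsf1*.

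Subtelomeric mRNA genes were weakly expressed in wild type cells, and their level was lowest nearest to the end. In wild type cells in rich medium their median was 0.408 FPKM, against 39.5 FPKM over all mRNA genes, and 61 of 112 lay below 1 FPKM, against 3.53% of all mRNA genes. The median was 0.0242 FPKM for the 28 mRNA genes within 20 kb of an end, 0.154 FPKM for the 34 between 20 and 40 kb, 2.35 FPKM for the 26 between 40 and 60 kb and 1.40 FPKM for the 24 between 60 and 80 kb. It was 31.3 FPKM for the 184 mRNA genes between 80 and 200 kb from the ends of these chromosomes and 43.6 FPKM for the 3824 beyond 200 kb. The highest subtelomeric mRNA in this library was SPAC977.14c (chromosome I, 59614 to 60907), a member of the aldo-keto reductase family, with 304 FPKM. The ncRNAs differed less from the rest of the genome, with a median of 1.34 FPKM against 3.81 FPKM over all ncRNAs.

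Repeated sequence moved with this low level, and its part in it was not tested. Of the 139 genes that matched a gene of the reference, 69 had more than 10% of their 50-base windows (the read length) present elsewhere in the genome. These were 28 of 29 genes within 20 kb of an end, 28 of 40 between 20 and 40 kb, 12 of 36 between 40 and 60 kb and 1 of 41 between 60 and 80 kb. In wild type cells in rich medium, 44 of the 63 mRNA genes among the 69 lay below 1 FPKM, and their median was 0 FPKM. Of the 49 mRNA genes with at most 10% of repeated windows, 17 lay below 1 FPKM, and their median was 1.55 FPKM. Of the mRNA genes, 51 of 112 encode a protein at least 95% identical to another over at least 80% of its length, and how the reads of such copies were divided is not stated. Of the 112, 17 were listed at 0 in every library, against 43 of all 5163 mRNA genes, and all 17 were among the 63 mRNA genes with more than 10% of repeated windows. An exact 0 may mark an estimate that failed rather than a silent gene. *plb4* and SPBC1348.10c, phospholipases with identical proteins, were at 0.727 FPKM and listed at 0 in the same wild type library.

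**Figure D1:**
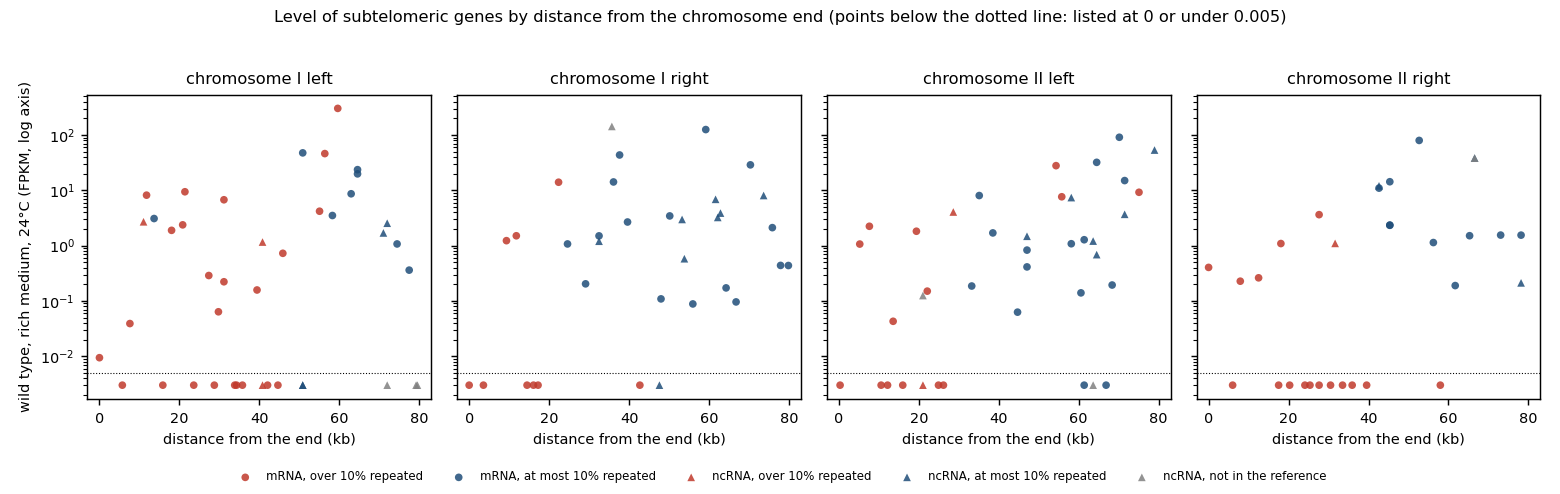
FPKM in wild type cells in rich medium at 24°C (log axis) by distance from the chromosome end in kb, 1 panel per end and 1 point per subtelomeric gene, with circles for mRNA, triangles for ncRNA and red for genes with more than 10% of repeated windows. Points below the dotted line are listed at 0 or under 0.005 FPKM, and the mRNA genes there are 32 red ones within 60 kb of the end and 2 blue ones further in.

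In heat-stressed cells, subtelomeric mRNA genes were past 2-fold in both directions. Of the 73 with a ratio, 17 were up (23.3%, 95% Wilson interval 15.1 to 34.2%), against 10.8% of all mRNA genes, and 20 were down (27.4%, 18.5 to 38.6%), against 9.46%. The median log2 ratio was -0.29, against -0.02 over all mRNA genes. Among those with a mean of 5 FPKM or more over both libraries, the largest rises were those of SPBPB21E7.11, SPBPB2B2.05, the pseudogene SPAC977.13c, *gal10* and the pseudogene SPBPB21E7.08, and the largest falls those of SPBPB8B6.05c, SPAC212.08c, SPAC977.12, SPAC750.01 and *yhb1*. The intervals reflect the number of genes counted and no error between libraries, since genes are not replicates.

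SPBPB21E7.11 (chromosome II, 61362 to 63086), an uncharacterized protein gene that shares its locus with SPBPB21E7.10, was at 24.4 FPKM in heat-stressed and 1.28 FPKM in wild type cells, a log2 ratio of 4.25. It was at 7.54 FPKM in *mas5Δ* and 1.44 FPKM in wild type cells (2.39), at 7.93 FPKM in *ssa2Δ* and 1.30 FPKM in wild type cells (2.61), and at 2.715 FPKM in *nmt1:hsf1* and 2.515 FPKM in wild type cells (0.11). It was thus past 2-fold in the comparisons of rich medium, which share their wild type library, but not in *nmt1:hsf1*. SPBPB2B2.05 (chromosome II, 4466517 to 4467612), of the class I glutamine amidotransferase family, was at 25.6 FPKM in heat-stressed and 1.51 FPKM in wild type cells (4.08). It was at 14.6 FPKM in *ssa2Δ* and 1.54 FPKM in wild type cells (3.25), at 2.36 FPKM in *mas5Δ* and 1.70 FPKM in wild type cells (0.47), and at 4.48 FPKM in *nmt1:hsf1* and 9.15 FPKM in wild type cells (-1.03).

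In *mas5Δ* cells the subtelomeric mRNA genes were more often up than down. Of the 75 with a ratio, 23 were up (30.7%, 21.4 to 41.8%), against 4.65% of all mRNA genes, and 11 were down (14.7%, 8.39 to 24.4%), against 3.89%. The median log2 ratio was 0.48, against 0.02 over all mRNA genes. In *ssa2Δ* cells 25 of 72 were up (34.7%, 24.8 to 46.2%), against 7.39% of all mRNA genes, and 15 were down (20.8%, 13.1 to 31.6%), against 2.32%, with a median of 0.11 against 0.02. In *nmt1:hsf1* cells 13 of 63 were up (20.6%, 12.5 to 32.2%), which is near the 22.0% of all mRNA genes, and 28 were down (44.4%, 32.8 to 56.7%), against 16.7%, with a median of -0.62 against -0.03.

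Because low values scatter more, the shares were also read by level. Among mRNA genes with a mean of 10 FPKM or more over the 2 libraries, 7 of 22 subtelomeric genes were up in *mas5Δ* cells, against 2.86% of all mRNA genes of that level, and 4 were down, against 3.47%. In *ssa2Δ* cells 8 of 19 were up, against 6.31%, and 2 were down, against 1.46%. Those up included *dak2*, SPAC186.06 and the galactose genes in *mas5Δ*, and SPAC977.14c, *eno102* and *aes1* in *ssa2Δ* cells. In heat-stressed cells 6 of 22 were up, against 10.2%, and 6 were down, against 8.77%. Under Hsf1 overexpression 13 of 20 were down, against 15.9%, and 3 were up, against 21.9%. With a mean under 1 FPKM, 9 of 23 subtelomeric genes were up in *mas5Δ* cells, against 37.0% of all mRNA genes of that level, 11 of 26 in *ssa2Δ* cells, against 31.5%, and 6 of 27 in heat-stressed cells, against 28.8%. Subtelomeric genes are themselves a large part of that class, and of the other mRNA genes in it 11 of 31 were up in *mas5Δ*, 6 of 28 in *ssa2Δ* and 13 of 39 in heat-stressed cells. For genes down there, the counts were 7 of 27 in heat-stressed cells, against 25.8%, 2 of 23 in *mas5Δ*, against 14.8%, 5 of 26 in *ssa2Δ*, against 13.0%, and 4 of 18 in *nmt1:hsf1* cells, against 35.7%, with 4 of 18 up in the last, against 16.7%. With a mean between 1 and 10 FPKM, 5 of 24 were up in heat-stressed cells, against 15.4%, 7 of 30 in *mas5Δ*, against 21.4%, 6 of 27 in *ssa2Δ*, against 16.5%, and 6 of 25 in *nmt1:hsf1* cells, against 25.0%. In that class 7 of 24 were down in heat-stressed cells, against 14.5%, 5 of 30 in *mas5Δ*, against 7.47%, 8 of 27 in *ssa2Δ*, against 10.7%, and 11 of 25 in *nmt1:hsf1* cells, against 28.3%. The excess of genes up over the whole list in *mas5Δ* cells was small at low levels, and large for the few genes with a mean of 10 FPKM or more. That mean is of the same 2 libraries as the ratio, so a gene can enter a class through its higher library only. In the highest class this held for genes in every comparison. Among those up were *eno102* in *ssa2Δ* (21.8 FPKM, against 1.10 FPKM in wild type cells) and *gal10* in *mas5Δ* (20.7 FPKM, against 2.63 FPKM). Another was SPBPB21E7.11 in heat-stressed cells (24.4 FPKM, against 1.28 FPKM). Among those down in *nmt1:hsf1* were SPBPB2B2.06c (0.188 FPKM, against 63.2 FPKM in wild type cells) and *aes1* (5.81 FPKM, against 241 FPKM). The split by level is thus a description and not independent of the change.

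**Figure D2:**
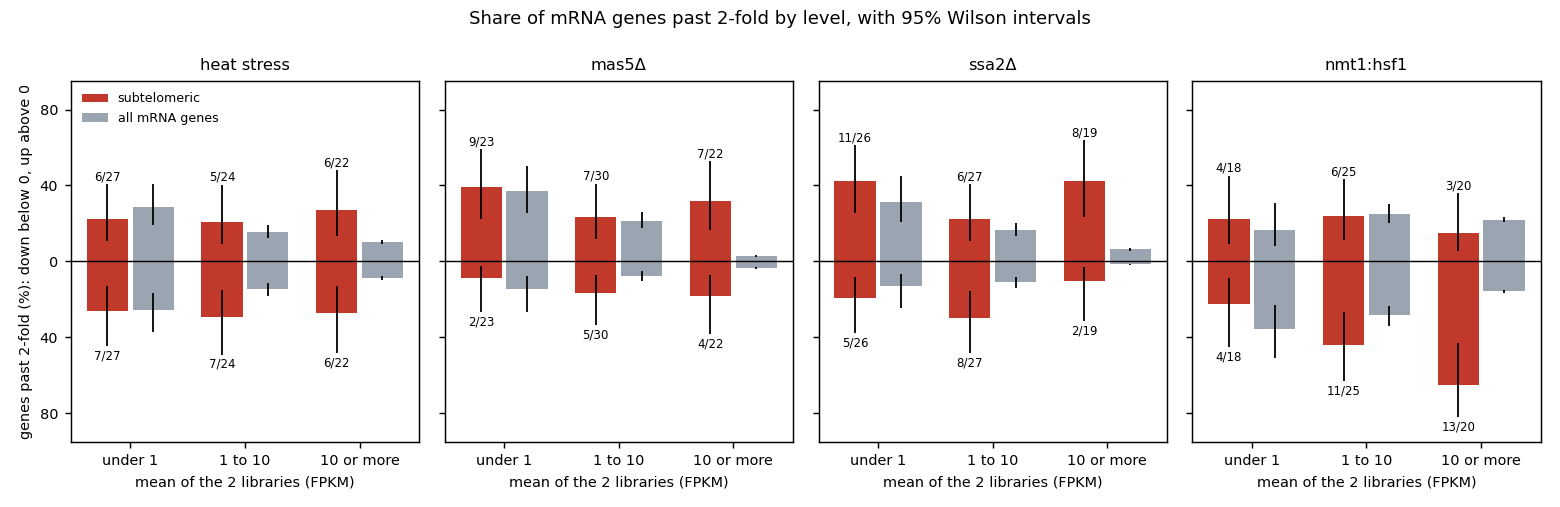
Percentage of mRNA genes more than 2-fold up (above 0) and down (below 0) by mean FPKM, for subtelomeric genes (red, with their counts) and all mRNA genes (grey), 1 panel per comparison, with 95% Wilson intervals as lines. In the highest class 7 of 22 subtelomeric genes were up in mas5Δ, 8 of 19 were up in ssa2Δ and 13 of 20 were down in nmt1:hsf1 cells, each larger than the grey bar beside it. A gene can enter a class through its higher library only.

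Genes past 2-fold were also counted at each end of the chromosomes. Each count is small, and within each comparison the Wilson intervals of these shares overlapped between ends. The counts therefore do not show that the ends differed. Of all mRNA genes, 10.8% were up in heat-stressed cells, 4.65% in *mas5Δ* and 7.39% in *ssa2Δ* cells, and 16.7% were down in *nmt1:hsf1* cells. In heat-stressed cells 1 of 19 mRNA genes was up at the left end of chromosome I (median log2 ratio -0.44), 6 of 19 at its right end (-0.74), 5 of 20 at the left end of chromosome II (0.08) and 5 of 15 at its right end (0.11). In *mas5Δ* cells the left end of chromosome I had the highest share, with 9 of 21 up and 3 down (0.86), against 4 of 19 up at its right end (0.45), 5 of 20 at the left end of chromosome II (0.23) and 5 of 15 at its right end (0.47). In *ssa2Δ* cells 8 of 21 were up at the left end of chromosome I (0.26), 5 of 17 at its right end (-0.53), 8 of 20 at the left end of chromosome II (0.31) and 4 of 14 at its right end (-0.36). In *nmt1:hsf1* cells the counts down were 7 of 17 (-0.68), 6 of 15 (-0.32), 7 of 17 (-0.25) and 8 of 14 (-1.08) in the same order of ends. The right end of chromosome I also had 6 of its 15 genes up in these cells, among them *pcm2* and *mel1*, against 22.0% of all mRNA genes.

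The counts were also read by distance from the end, with no test between the mutants, which share their wild type library. Of the mRNA genes within 20 kb, 8 of 15 were up and 3 were down in *mas5Δ* cells (median 1.23), and 2 of 13 were up and 6 were down in *ssa2Δ* cells (-0.71). Of all 29 genes there, 28 have repeated windows, and their part in these counts was not tested. The genes up there in *mas5Δ* were also low, with means from 0.0278 FPKM (*tlh1*) to 6.71 FPKM (*ftm5*). Of all mRNA genes, 37.0% with a mean under 1 FPKM and 21.4% with a mean of 1 to 10 FPKM were up in *mas5Δ*. Between 60 and 80 kb, 5 of 21 were up and 2 down in *mas5Δ* cells (0.47), and 12 of 20 were up and 2 down in *ssa2Δ* cells (1.31). Between 80 and 200 kb, where genes are not counted as subtelomeric here, 13 of 179 were up and 18 down in *mas5Δ* (-0.03). In *ssa2Δ* cells 22 of 179 were up there and 15 down (0.05). Of subtelomeric mRNA genes with more than 10% of repeated windows, 11 of 29 were up and 5 down in *mas5Δ* (0.66). In *ssa2Δ* cells 6 of 28 of them were up and 9 down (-0.66). Of the others 12 of 46 were up and 6 down in *mas5Δ* (0.45), and 19 of 44 were up and 6 down in *ssa2Δ* cells (0.60). In heat-stressed cells 2 of 27 repeated genes and 15 of 46 of the others were up, against 10.8% of all mRNA genes. Down were 8 of 27 repeated genes and 12 of 46 of the others, against 9.46%.

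**Figure D3:**
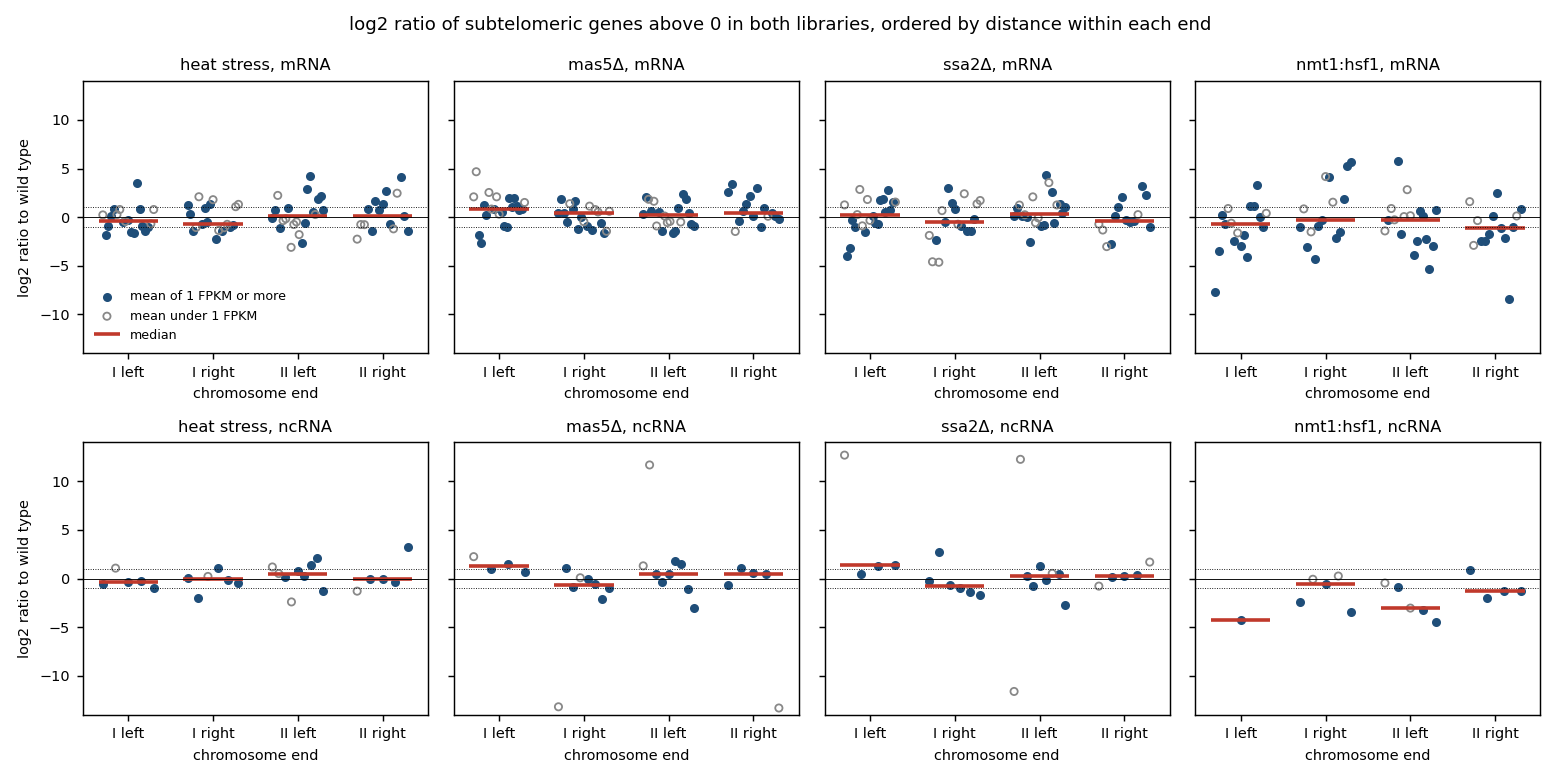
log2 ratio to wild type of each subtelomeric gene above 0 in both libraries, by chromosome end, mRNA above and ncRNA below, 1 panel per comparison. Filled points have a mean of 1 FPKM or more, open points less, red lines are medians and dotted lines mark 2-fold; the nmt1:hsf1 ncRNA panel has no point above the upper dotted line.

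The pseudogene SPAC977.13c (chromosome I, 58277 to 59105), alone in its locus and without repeated windows, was up in all 4 comparisons. It was at 41.5 FPKM in heat-stressed and 3.51 FPKM in wild type cells (log2 ratio 3.56), at 15.2 FPKM in *mas5Δ* and 3.95 FPKM in wild type cells (1.94), at 11.8 FPKM in *ssa2Δ* and 3.56 FPKM in wild type cells (1.72), and at 18.2 FPKM in *nmt1:hsf1* and 8.13 FPKM in wild type cells (1.16). The next gene inwards, SPAC977.14c, with 29.1% of repeated windows, reached 1134 FPKM in *ssa2Δ* and 308 FPKM in wild type cells (1.88) and 773 FPKM in *nmt1:hsf1* and 360 FPKM in wild type cells (1.10). It was at 540 FPKM in heat-stressed and 304 FPKM in wild type cells (0.83) and at 680 FPKM in *mas5Δ* and 342 FPKM in wild type cells (0.99), which is just under 2-fold.

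*yhb1* (SPAC869.02c, chromosome I, 5517865 to 5519950), whose nitric oxide dioxygenase detoxifies nitric oxide, was down in all 4 comparisons. It was at 46.8 FPKM in heat-stressed and 126 FPKM in wild type cells (-1.43), at 55.0 FPKM in *mas5Δ* and 142 FPKM in wild type cells (-1.36), at 48.6 FPKM in *ssa2Δ* and 128 FPKM in wild type cells (-1.39), and at 16.4 FPKM in *nmt1:hsf1* and 74.4 FPKM in wild type cells (-2.18). SPNCRNA.1306 (chromosome II, 78958 to 80201), a non-coding RNA alone in its locus, was also down in all 4. It was at 22.1 FPKM in heat-stressed and 53.6 FPKM in wild type cells (-1.28), at 7.29 FPKM in *mas5Δ* and 60.3 FPKM in wild type cells (-3.05), at 8.05 FPKM in *ssa2Δ* and 54.4 FPKM in wild type cells (-2.76), and at 3.65 FPKM in *nmt1:hsf1* and 80.02 FPKM in wild type cells (-4.46). Of subtelomeric genes that averaged 5 FPKM or more in each table, no others were past 2-fold the same way in all 4. SPAC212.08c was also down in all 4, and missed that level only through its fall in *ssa2Δ* cells, where it was at 0.510 FPKM, against 8.31 FPKM in wild type cells (-4.03). It was at 2.28 FPKM in heat-stressed and 8.19 FPKM in wild type cells (-1.85) and at 2.62 FPKM in *mas5Δ* and 9.21 FPKM in wild type cells (-1.81). For each gene 3 of the 4 ratios share 1 wild type library.

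Roles were set by words in the product name, so a group can miss enzymes of its kind. The group named as transferases, kinases, synthases, epimerases, lyases, isomerases or enolases held 13 genes. Of these, 6 of 10 with a ratio were up in *mas5Δ* cells, against 30.7% of subtelomeric and 4.65% of all mRNA genes. In *ssa2Δ* cells 8 of 10 were up, against 34.7% and 7.39% of the same sets. None of the group was down in either mutant. The pyruvate decarboxylase gene *pdc102*, which these words miss, was at 0.0437 FPKM in *ssa2Δ* and 1.09 FPKM in wild type cells (-4.64). In heat-stressed cells 5 of 9 of the group were up, against 23.3% and 10.8%, and 1 was down. Under Hsf1 overexpression 1 of 9 was up, against 20.6% and 22.0%, and 5 were down, against 44.4% and 16.7%. The group holds the galactose genes *gal7*, *gal10* and *gal1* (chromosome II, 4482234 to 4490271), whose enzymes turn galactose into glucose phosphate. *gal10*, an epimerase gene that shares its locus with *gal7*, was at 14.7 FPKM in heat-stressed and 2.33 FPKM in wild type cells (2.66), at 20.7 FPKM in *mas5Δ* and 2.63 FPKM in wild type cells (2.98), at 10.3 FPKM in *ssa2Δ* and 2.37 FPKM in wild type cells (2.12), and at 5.26 FPKM in *nmt1:hsf1* and 4.70 FPKM in wild type cells (0.16). The log2 ratio of *gal7*, the uridylyltransferase gene, was 0.76 in heat stress, 2.15 in *mas5Δ*, 1.06 in *ssa2Δ* and -1.71 in *nmt1:hsf1*. That of *gal1*, the galactokinase gene, was 1.67, 1.40, 0.09 and -2.49 in the same order, so that all 3 were up in *mas5Δ* while *gal7* and *gal1* were down in *nmt1:hsf1* cells. *mel1* (melibiase, which frees galactose from melibiose), on chromosome I, was at 4.36 FPKM in *nmt1:hsf1* and 0.115 FPKM in wild type cells (5.24).

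*dak2*, a dihydroxyacetone kinase gene of glycerol use, was at 170 FPKM in *ssa2Δ* and 24.0 FPKM in wild type cells (2.82) and at 59.9 FPKM in *mas5Δ* and 26.7 FPKM in wild type cells (1.17), but at 8.90 FPKM in heat-stressed and 23.7 FPKM in wild type cells (-1.41). In *nmt1:hsf1* cells it was at 28.2 FPKM, against 27.0 FPKM in wild type cells (0.06). *eno102*, an enolase gene of glycolysis, was at 21.8 FPKM in *ssa2Δ* and 1.10 FPKM in wild type cells (4.31) and at 8.03 FPKM in heat-stressed and 1.08 FPKM in wild type cells (2.89). SPAC186.06, an isomerase gene, was at 118 FPKM in *ssa2Δ* and 14.4 FPKM in wild type cells (3.03) and at 52.1 FPKM in *mas5Δ* and 15.97 FPKM in wild type cells (1.71), but at 1.08 FPKM in *nmt1:hsf1* and 20.7 FPKM in wild type cells (-4.26). *pcm2*, a gene for a methyltransferase that acts on damaged aspartate residues, was at 17.7 FPKM in *nmt1:hsf1* and 0.351 FPKM in wild type cells (5.66), and below 2 FPKM in the other libraries.

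**Figure D4:**
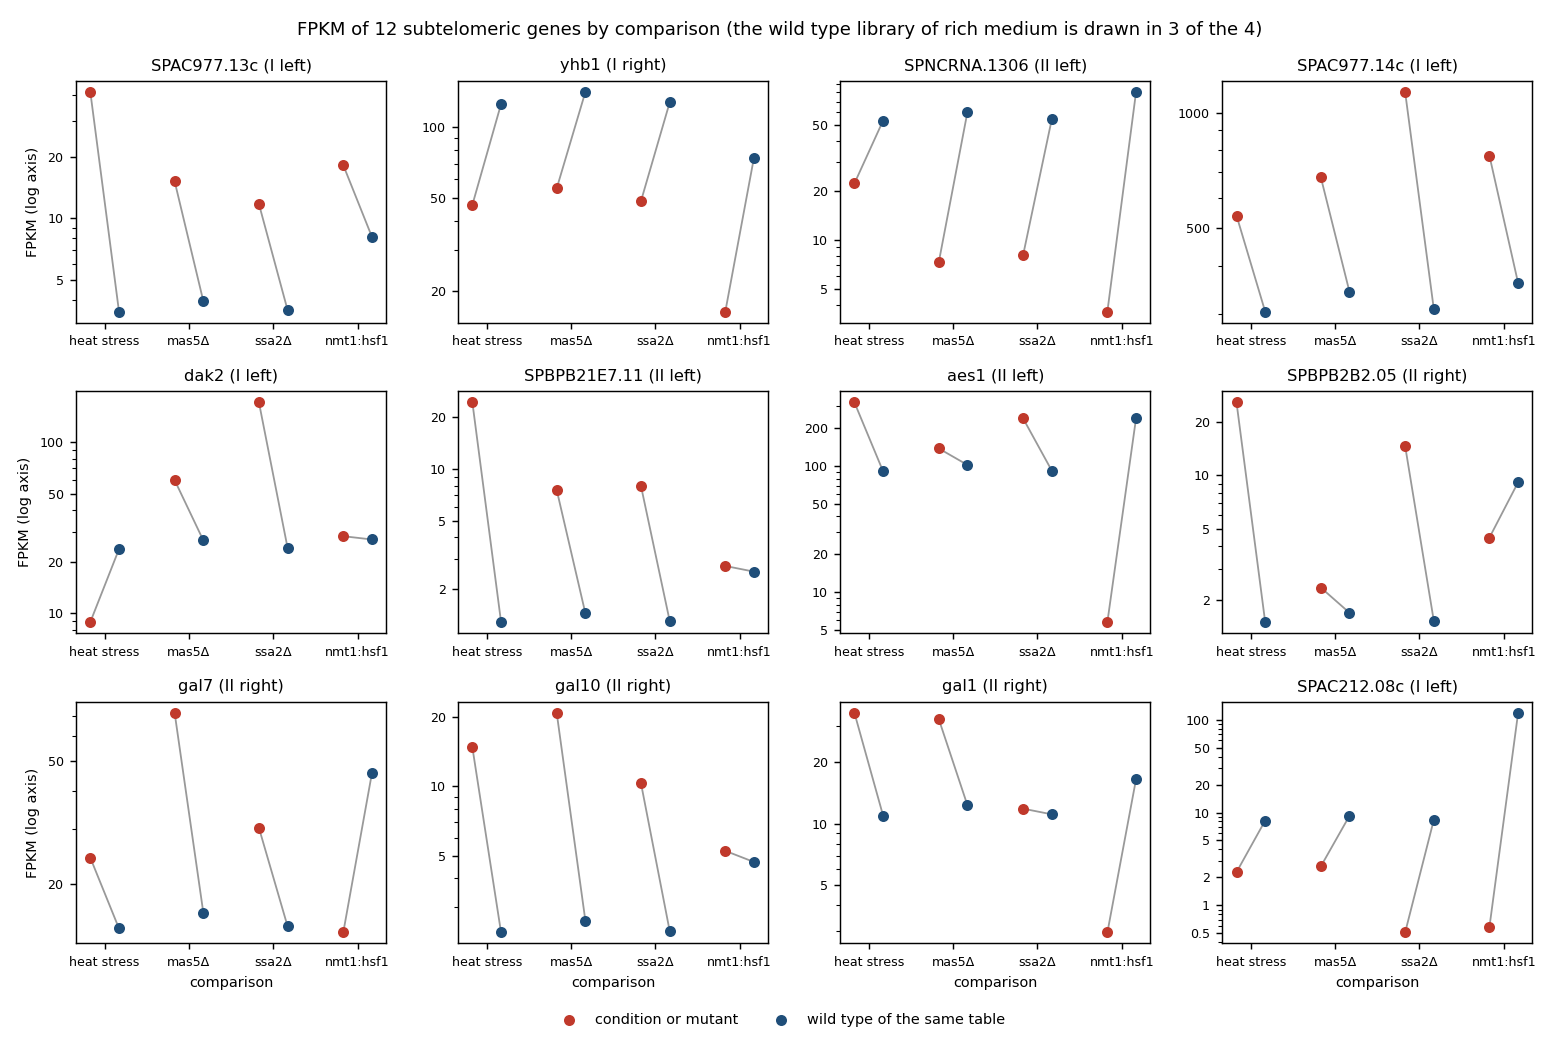
FPKM (log axis, a scale per panel) of 12 subtelomeric genes in the 4 comparisons, with red points for the condition or mutant, blue points for the wild type library of the same table and lines joining the pair. SPAC977.13c was above and yhb1 and SPNCRNA.1306 were below wild type in every pair, while aes1 was above it in heat stress and far below it in nmt1:hsf1 cells.

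Among genes with a mean of 5 FPKM or more, the 2 largest changes in *nmt1:hsf1* cells were falls, of SPBPB2B2.06c and SPAC212.08c, followed by the rise of *pcm2*. SPBPB2B2.06c (chromosome II, 4469018 to 4471207), a phosphoprotein phosphatase gene, was at 0.188 FPKM, against 63.2 FPKM in wild type cells of the same medium (-8.39), and at 0.190 FPKM in wild type cells in rich medium. SPAC212.08c (chromosome I, 11784 to 12994), for a GPI-anchored cell surface protein and with 51.6% of repeated windows, was at 0.585 FPKM, against 118 FPKM in wild type cells (-7.66). *aes1*, of the phenazine biosynthesis family, was at 5.81 FPKM, against 241 FPKM in wild type cells (-5.37), and the pseudogene SPBPB21E7.08 at 54.2 FPKM, against 413 FPKM in wild type cells (-2.93). These last 2 neighbours were higher in heat-stressed cells, *aes1* at 322 FPKM against 91.2 FPKM in wild type cells (1.82) and SPBPB21E7.08 at 69.2 FPKM against 15.0 FPKM in wild type cells (2.20). SPAC977.15, of the dienelactone hydrolase family, was at 25.4 FPKM in *nmt1:hsf1* and 2.66 FPKM in wild type cells (3.26), and at 37.4 FPKM in *mas5Δ* and 9.76 FPKM in wild type cells (1.94). *gdt1*, a gene for a GDT1-like protein, was at 120 FPKM in *ssa2Δ* and 44.3 FPKM in wild type cells (1.44), but at 20.5 FPKM in *mas5Δ* and 49.1 FPKM in wild type cells (-1.26). *sul2*, a sulfate transporter gene, was at 17.95 FPKM in *nmt1:hsf1* and 52.1 FPKM in wild type cells (-1.54), at 10.6 FPKM in *ssa2Δ* and 29.4 FPKM in wild type cells (-1.47), at 14.4 FPKM in heat-stressed and 28.9 FPKM in wild type cells (-1.01), and had a log2 ratio of -0.62 in *mas5Δ*. SPAC750.01, of the aldo/keto reductase family, was at 2.72 FPKM in *ssa2Δ* and 14.3 FPKM in wild type cells (-2.39). Its protein is 94.5% identical to that of SPAC977.14c, and 32.8% of its windows are repeated, so reads of these 2 genes may be shared. SPAC212.04c, an uncharacterized protein gene, was down in *ssa2Δ* cells (-1.05), and *grt1*, a transcription factor gene, stayed under 1 FPKM in every library.

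Other roles were set by product names in the same way. In *nmt1:hsf1* cells 5 of 6 oxidoreductase, 4 of 7 transport and 4 of 9 hydrolase genes with a ratio were down. The shares down were 44.4% of subtelomeric and 16.7% of all mRNA genes. Up were 1 of the oxidoreductase, none of the transport and 4 of the hydrolase genes, against 20.6% of subtelomeric and 22.0% of all mRNA genes.

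Genes with near-identical copies were read as pairs whose reads cannot be told apart where the copies match. The L-asparaginase genes SPAC977.12 and SPBPB8B6.05c, 99.7% identical in protein, were lower than wild type in every comparison. SPAC977.12 was at 15.3 FPKM in heat-stressed and 46.2 FPKM in wild type cells (-1.59), and its copy at 4.52 FPKM in heat-stressed and 28.0 FPKM in wild type cells (-2.63). Under Hsf1 overexpression they were at 1.32 FPKM, against 23.3 FPKM in wild type cells (-4.14), and at 0.609 FPKM, against 8.98 FPKM in wild type cells (-3.88). In *mas5Δ* their log2 ratios were -1.001 and -1.62, and in *ssa2Δ* -0.69 and -0.92. The other L-asparaginase pair, SPAC186.03 and SPBPB21E7.09, 98.6% identical in protein, was not lower throughout. SPBPB21E7.09 was at 19.0 FPKM in *ssa2Δ* and 9.38 FPKM in wild type cells (1.02), at 15.7 FPKM in heat-stressed and 9.23 FPKM in wild type cells (0.77), at 5.62 FPKM in *mas5Δ* and 10.4 FPKM in wild type cells (-0.89), and at 51.7 FPKM in *nmt1:hsf1* and 31.4 FPKM in wild type cells (0.72). SPAC186.03 was at 1.14 FPKM in *nmt1:hsf1* and 0.0633 FPKM in wild type cells (4.17), and was listed at 0 in wild type cells in rich medium. The fluoride exporter genes *fex1* and *fex2*, which lie next to SPAC977.12 and SPBPB8B6.05c and encode identical proteins of 311 residues, had log2 ratios of -1.56 and -0.62 in heat stress, -0.88 and -1.45 in *mas5Δ*, -0.63 and -0.80 in *ssa2Δ* and -1.80 and -2.44 in *nmt1:hsf1*. The helicase genes *tlh1* and *tlh2*, at the outermost position of 2 ends, stayed low. *tlh2* was at 2.82 FPKM in *mas5Δ* and 0.455 FPKM in wild type cells (2.63), at 0.0842 FPKM in heat-stressed and 0.404 FPKM in wild type cells (-2.26), at 0.251 FPKM in *ssa2Δ* and 0.410 FPKM in wild type cells (-0.71), and at 0.662 FPKM in *nmt1:hsf1* and 0.219 FPKM in wild type cells (1.59). *tlh1* did not exceed 0.0451 FPKM in any library. The gene *ftm5*, for a protein with transmembrane helices and wholly in repeated windows, was at 10.9 FPKM in *mas5Δ* and 2.52 FPKM in wild type cells (2.11). Of 8 genes of this family, 3 of the 4 with a ratio were up in *mas5Δ* cells, against 4.65% of all mRNA genes, though *ftm1* among them averaged only 0.244 FPKM. In *ssa2Δ* cells 1 of 4 was up and 1 down (*ftm4*, -4.59), and none of 3 with a ratio was past 2-fold in heat-stressed or in *nmt1:hsf1* cells, where *ftm4* was listed at 0.

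**Figure D5:**
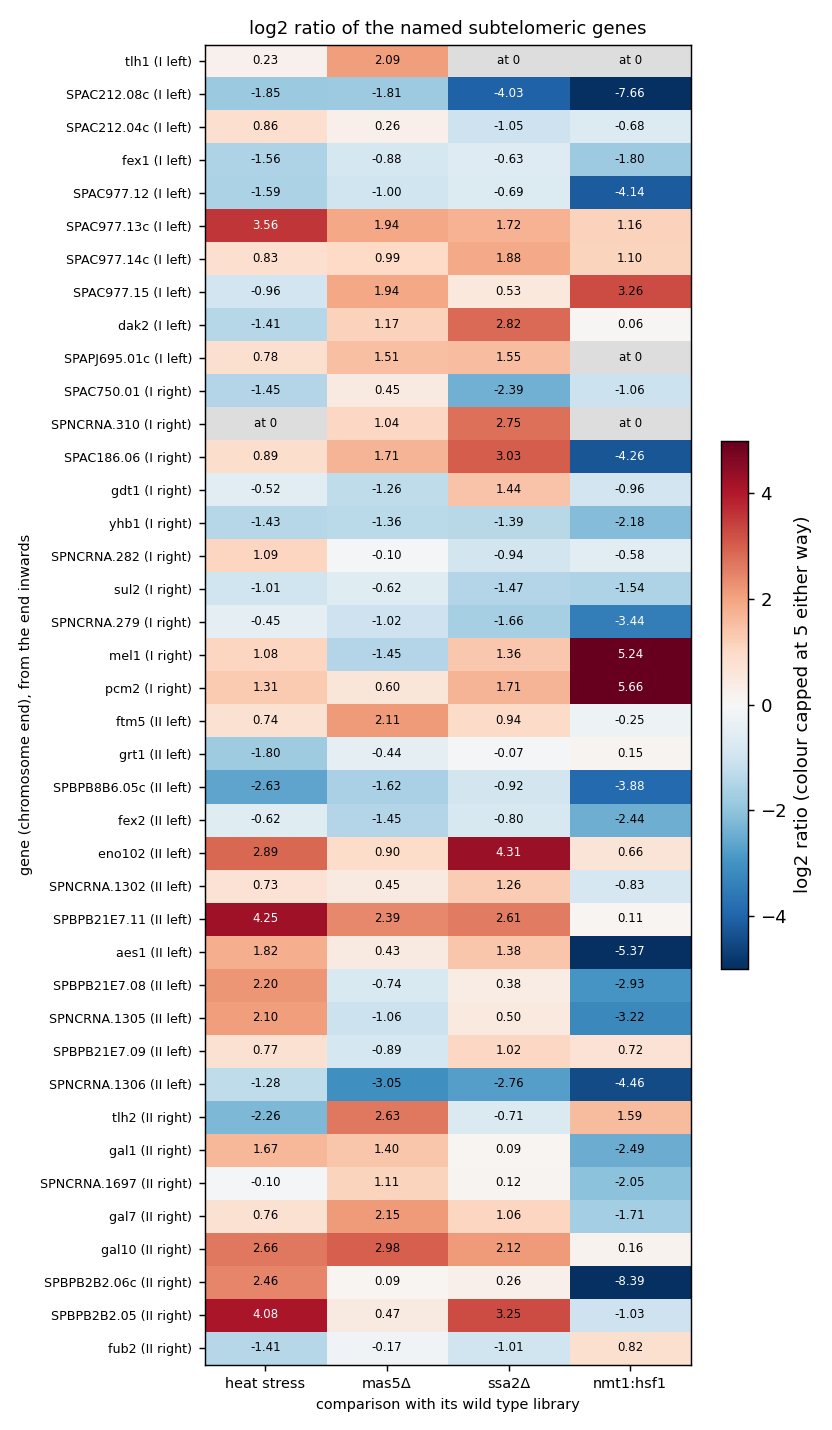
log2 ratio to wild type of the named subtelomeric genes (rows, by chromosome end and from the end inwards) in the 4 comparisons (columns), red above and blue below wild type, with each value printed and grey where the gene is listed at 0 in at least 1 library. The row of SPAC977.13c is red and the rows of yhb1 and SPNCRNA.1306 are blue throughout, and the galactose genes are red in mas5Δ.

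The ncRNAs stood apart from other ncRNAs in the *nmt1:hsf1* comparison. There 0 of 15 with a ratio were up (95% Wilson interval 0 to 20.4%), against 46.7% of all ncRNAs, and 9 were down (interval 35.7 to 80.2%), against 16.8%, with a median log2 ratio of -1.27 against 0.82. A further 19 of the 34 were listed at 0 in at least 1 of these libraries. In heat-stressed cells 6 of 25 were up (24.0%), against 25.9% of all ncRNAs, and 5 down, against 13.6%. In *mas5Δ* cells 9 of 26 were up (34.6%), against 16.6%, and 6 down, against 9.67%, and in *ssa2Δ* cells 7 of 24 were up (29.2%), against 23.8%, and 4 down, against 10.9%. SPNCRNA.1305, which shares its locus with the pseudogene SPBPB21E7.08, was at 9.99 FPKM in *nmt1:hsf1* and 93.0 FPKM in wild type cells (-3.22) and at 15.8 FPKM in heat-stressed and 3.69 FPKM in wild type cells (2.10), close to the ratios of its partner. Without strand information the reads of such partners cannot be told apart. SPNCRNA.1697, which shares its locus with *gal1*, had log2 ratios of 1.11 in *mas5Δ* and -2.05 in *nmt1:hsf1*, SPNCRNA.1302 of 1.26 in *ssa2Δ*, and SPNCRNA.282 of 1.09 in heat stress. SPNCRNA.279 was at 0.617 FPKM in *nmt1:hsf1* and 6.70 FPKM in wild type cells (-3.44). SPNCRNA.310, a short RNA at bases 5543364 to 5543438 of chromosome I, was listed at 0 in heat-stressed cells, against 143 FPKM in wild type cells. It was at 976 FPKM in *ssa2Δ* and 145 FPKM in wild type cells (2.75), at 332 FPKM in *mas5Δ* and 161 FPKM in wild type cells (1.04), and listed at 0 in both libraries of minimal medium. Ratios past 1000-fold either way, such as that of SPNCRNA.136 in *ssa2Δ* cells, came from values under 0.001 FPKM in loci that hold another gene. They are not read as changes of these genes, but the counts above include them. In *mas5Δ* cells they are SPNCRNA.287 among those up, and *prl61* and SPNCRNA.1695 among those down. In *ssa2Δ* cells they are SPNCRNA.136 and SPNCRNA.287 among those up, and SPNCRNA.1300 among those down. SPNCRNA.136 is also counted as up in *mas5Δ* (2.25) and heat-stressed cells (1.07), where both of its values were under 0.001 FPKM.

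Sequence before the gene start was read for the mRNA gene at each end with the highest mean of the heat stress and *nmt1:hsf1* log2 ratios among genes that averaged 5 FPKM or more in both tables, the conditions in which cells were heated or Hsf1 was overexpressed. The 250 bases before the gene start are from RefSeq assembly ASM294v3, in lower case with capitals for TGACGT, the core of sites bound by the stress factor Atf1, and for runs of GAANNTTC or TTCNNGAA, the letters of the heat shock element bound by Hsf1, on either strand. The window lies on the minus strand of chromosome I from 59106 to 59355 for SPAC977.13c and from 5541482 to 5541731 for *gdt1*, and on the plus strand of chromosome II from 76046 to 76295 for SPBPB21E7.09 and from 4466360 to 4466609 for SPBPB2B2.05. The deposited loci, whose build is not named, begin elsewhere than the RefSeq genes. By position, all 250 bases for SPBPB21E7.09, 93 for SPBPB2B2.05 and 21 for *gdt1* lie inside the deposited locus of the gene, and none for SPAC977.13c.
SPAC977.13c: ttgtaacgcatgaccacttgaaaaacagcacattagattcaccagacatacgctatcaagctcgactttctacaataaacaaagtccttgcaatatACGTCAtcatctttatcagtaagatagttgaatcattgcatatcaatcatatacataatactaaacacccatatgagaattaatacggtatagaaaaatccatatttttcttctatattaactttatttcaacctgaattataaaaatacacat
gdt1: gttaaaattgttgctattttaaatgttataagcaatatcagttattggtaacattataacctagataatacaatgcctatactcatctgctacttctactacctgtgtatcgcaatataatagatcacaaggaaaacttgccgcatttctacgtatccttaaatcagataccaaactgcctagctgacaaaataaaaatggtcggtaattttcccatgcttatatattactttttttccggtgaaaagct
SPBPB21E7.09: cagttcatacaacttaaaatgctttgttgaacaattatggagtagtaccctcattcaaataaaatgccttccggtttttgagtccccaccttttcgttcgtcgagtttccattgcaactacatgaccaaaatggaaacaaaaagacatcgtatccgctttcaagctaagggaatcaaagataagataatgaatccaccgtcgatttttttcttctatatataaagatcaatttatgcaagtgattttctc
SPBPB2B2.05: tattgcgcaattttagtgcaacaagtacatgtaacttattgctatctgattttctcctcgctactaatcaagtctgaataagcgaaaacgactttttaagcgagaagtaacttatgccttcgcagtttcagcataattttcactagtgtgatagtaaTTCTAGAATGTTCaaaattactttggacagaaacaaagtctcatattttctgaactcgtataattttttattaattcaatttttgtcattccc
SPBPB2B2.05 has 1 run that holds both forms of the heat shock element overlapping, which by position lies just inside its deposited locus. The gene had the second largest rise in heat-stressed cells (4.08), but was down in *nmt1:hsf1* cells (-1.03) and at 0.47 in *mas5Δ*. SPAC977.13c has 1 TGACGT read on the other strand. Neither kind of letters is in the windows of *gdt1* and SPBPB21E7.09, whose mean ratios were -0.74 and 0.74. Over windows from 250 bases before to 50 bases after the gene start, GAANNTTC was found in 6 of 111 subtelomeric mRNA genes (5.41%), against 11.2% of 5135 mRNA genes, and TTCNNGAA in 7 (6.31%), against 10.2%. The longer heat shock element, both forms overlapping in 1 run, was found in 1 of the 111, that of SPBPB2B2.05, against 0.487% of all windows, and TGACGT in 7 (6.31%), against 5.96%. Repeated genes share windows, and among the 49 genes with at most 10% of repeated windows GAANNTTC was found in 6 (12.2%) and TTCNNGAA in 3 (6.12%). A match of letters is a description and not a bound site.

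Genes for telomere and heterochromatin factors are not subtelomeric, and were counted because they act on these regions. Of 38 such genes, 3 were up and 1 was down in heat-stressed cells, against 10.8% and 9.46% of all mRNA genes. None was past 2-fold in *mas5Δ* cells, where 4.65% of all mRNA genes were up and 3.89% down, and 1 was up in *ssa2Δ* cells, against 7.39%. Under Hsf1 overexpression 18 were up, against 22.0%, and none was down, against 16.7%, with a median log2 ratio of 0.85 against -0.03. Those up included *clr4*, the H3 methyltransferase gene, at 28.4 FPKM in *nmt1:hsf1* and 8.18 FPKM in wild type cells (1.80), and the shelterin gene *rap1* at 66.0 FPKM, against 16.7 FPKM in wild type cells (1.98). *swi6* was at 80.9 FPKM in *nmt1:hsf1* and 88.0 FPKM in wild type cells (-0.12).

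The mRNA genes on either side of the limit of 80 kb are given as a description. At the left end of chromosome II, SPBPB21E7.09 just inside had log2 ratios of 0.77, -0.89, 1.02 and 0.72 in heat stress, *mas5Δ*, *ssa2Δ* and *nmt1:hsf1*, and the cysteine transporter gene SPBPB10D8.01 just outside -3.12, -4.87, -1.27 and -5.23. At its right end *fub2* just inside had -1.41, -0.17, -1.01 and 0.82, and *pho1*, an acid phosphatase gene just outside, -1.46, 2.33, -1.32 and -4.77. At the right end of chromosome I *pcm2* just inside had 1.31, 0.60, 1.71 and 5.66, and SPAC869.09 just outside 0.10, -2.24, 0.75 and 3.27. At its left end SPAPJ695.01c just inside had 0.78, 1.51 and 1.55 in the first 3 and was listed at 0 in *nmt1:hsf1* cells, and *ght3*, a gluconate transporter gene, just outside had 2.32, 1.28, 1.38 and -2.04.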

How the data were processed

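RNA of 6 conditions, 1 library each, was read as 50-base single ends. Reads were mapped with TopHat and quantified with Cuffdiff per the labels. The authors deposited 4 tables of FPKM values, each scaled separately. The wild type library of rich medium had other values in each table (factors of 1.13 for *mas5Δ* and 1.02 for *ssa2Δ* relative to heat stress), so ratios were taken within a table. Depth, versions and build are not given in the sources used here. The deposited log2 ratios, p-values and q-values of the authors' comparisons were not used. The loci had the same start as the single gene of ASM294v3 in 1458 of 2253 loci. Names, products and sequences came from ASM294v3.

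Members, lists and rules were chosen with earlier results of these data known. Log2 ratios were taken without a pseudocount above 0 in both libraries. Named genes were, per comparison, the 5 largest rises and falls of mRNA and 2 of ncRNA with a mean of at least 5 FPKM, those past 2-fold the same way in all 4 tables, a fixed list (*tlh1*, *tlh2*, *gal1*, *gal7*, *gal10*, *fex1*, *fex2*, *mel1*, *dak2*, *grt1*, *frp1* and *ght3* where members), and the genes next to the limit. *plb4*, its copy, SPAC186.03, *pdc102*, *ftm1*, *ftm4*, SPNCRNA.136 and the factors named were chosen after values were seen. Copies were found with BLAST+ 2.17.0. Ratios and counts were tested on simulated data. Python 3.11.15, numpy 2.4.6, pandas 2.3.3, scipy 1.17.1, matplotlib 3.10.9 and Biopython 1.88 were used. Alternatives were other filters, pseudocounts, centring, fold and distance limits, *mug* and *meu* genes kept, genes alone in their locus, genes without near-identical copies, status OK and the other wild type library.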

Additional observations from a re-analysis of the deposited data

How the results depend on the processing

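Under the alternatives tried, 194 shares of subtelomeric genes past the fold limit lay within the 95% interval of the share reported and 30 lay outside it. All shares in this paragraph are of subtelomeric genes. The share over all genes was not computed for the other fold limits and pseudocounts, so whether the excess over it moved too is not known. With a pseudocount of 1 FPKM the mRNA genes up and down made 13.7% and 12.3% in heat stress and 18.7% and 8.00% in *mas5Δ*, and 18.1% were up in *ssa2Δ*. The ncRNAs up were then 8.00% in heat stress (also 8.00% down), 15.4% in *mas5Δ* and 12.5% in *ssa2Δ*. At 1.5-fold, 37.0% of subtelomeric mRNA genes were up and 42.5% down in heat stress, 46.7% up in *mas5Δ* and 31.9% down in *ssa2Δ*. At 3-fold, 9.59% of mRNA genes were down in heat stress, and 5.33% in *mas5Δ*, whereas in *ssa2Δ* cells 20.8% were up and 12.5% down, and the ncRNAs up were 8.00% in heat stress (8.00% down) and 11.5% in *mas5Δ*. Within 40 kb, 13.3% were up in heat stress, 20% up and 40% down in *ssa2Δ*, and 8.00% up in *nmt1:hsf1*. With a mean of 10 FPKM or more, 10.5% of mRNA genes were down in *ssa2Δ*, and 65% of mRNA genes and 100% of ncRNAs, 4 genes, in *nmt1:hsf1*. For ncRNAs alone in their locus, 10% were up in heat stress and 18.2% in *mas5Δ*. Against the wild type library of minimal medium, scaled separately, 12.5% of ncRNAs were up in *ssa2Δ*. Leaving out genes with repeated windows, an alternative chosen after seeing the data, moved no share out of its interval. Of the medians by end, 190 lay within the spread reported and 2 did not, that of *ssa2Δ* at the right end of chromosome II within 40 kb (-2.06) and that of *nmt1:hsf1* at the right end of chromosome I with a mean of 10 FPKM or more (-2.18). The cause of these moves was not tested.

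No paired analysis was possible because each condition was 1 library. Depth is unknown, low values scatter, reads of repeated genes cannot be assigned to 1 copy, and the *nmt1:hsf1* comparison differs from the others in medium as well as in the gene driven.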

Other observations

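Subtelomeric genes differed widely between the wild type libraries of minimal and rich medium, in values from tables that were scaled separately. Neither library was replicated, so the part of the medium cannot be told apart from that of culture or library, and was not tested. In wild type cells in minimal medium 18 of 68 subtelomeric mRNA genes were more than 2-fold higher than in rich medium (26.5%), against 8.71% of all mRNA genes, and 15 were lower (22.1%), against 3.61%. These shares were not split by level. Low values scatter more and are common among subtelomeric genes, and their part in the excess was not tested. SPBPB2B2.06c was at 63.2 FPKM in minimal and 0.190 FPKM in rich medium, SPAC212.08c at 118 FPKM in minimal and 8.19 FPKM in rich medium, and the pseudogene SPBPB21E7.08 at 413 FPKM in minimal and 15.0 FPKM in rich medium. These 3 genes were among those lower in *nmt1:hsf1* than in wild type cells of minimal medium, a comparison that uses the same minimal medium library. *gdt1* was at 11.4 FPKM in minimal and 43.6 FPKM in rich medium, and SPNCRNA.310 was listed at 0 in minimal medium and at 143 FPKM in rich medium. The values of this short RNA may rest on few reads. Of 18 ncRNAs, 2 were higher in minimal medium (11.1%), against 12.5% of all ncRNAs, and 5 were lower (27.8%), against 17.3%.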
